A study of Mus musculus with 12 samples.

Results

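Integrins, laminins and nidogens form the contact between a cell and its basement membrane, and 39 of the 16670 genes in the deposited table belong to these families. They were taken by gene symbol: every integrin alpha chain (Itga followed by a number or letter, 18 genes), integrin beta chain (Itgb, 8), laminin alpha (Lama, 5), beta (Lamb, 3) and gamma chain (Lamc, 3) and both nidogens (Nid1 and Nid2). The rule uses no measured value. The genes were read in all 12 libraries of the study.

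The RNA came from the inguinal (subcutaneous) fat of female C57BL/6 mice whose genotype was labelled either Kdm5c+/- or Kdm5c+/+ (WT). Tissue of 2 mice was pooled for each library and digested with collagenase, and the floating mature adipocytes were parted by centrifugation from the pelleted stromal vascular cells. Each fraction gave 3 Kdm5c+/- and 3 WT libraries, so that there were 4 groups of 3. The sources used here do not give the animals' age, the altered stretch of Kdm5c or the cells that carry the change, and no further allele, Cre driver or treatment is named in the labels. Levels are in CPM (counts per 1000000 reads counted on the genes in the deposited table), and such reads numbered 21836878 to 29434125 per library. A level of 3 reads, taken as the floor of counting, came to 0.102 to 0.137 CPM. The collagenase step digests the matrix that these genes encode or bind, and the values are of RNA, not of protein.

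The fraction labels matched their defining markers, and the genotype labels were not mirrored in the level of Kdm5c. All 8 mature adipocyte markers were higher in mature adipocytes (Adipoq, encoding adiponectin, 4331 against 99.7 CPM). All 8 endothelial markers were lower there, though not absent (Cdh5, 72.2 against 2096 CPM). Not every marker listed for other cell types was lower in mature adipocytes. Among the exceptions, the fibroblast marker Gsn was higher (17733 against 13180 CPM) and the pericyte marker Cspg4 was not called (138 against 125 CPM). Kdm5c, which encodes an X-linked histone demethylase, stood at 158, 190.3 and 158 CPM in the Kdm5c+/- and 179, 174 and 180.0 CPM in the WT mature adipocyte libraries. In stromal vascular libraries it stood at 194, 190.4 and 175 CPM in Kdm5c+/- and 188, 185 and 180.1 CPM in WT. The groups are therefore called by their labels.

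An integrin is a pair of 1 alpha and 1 beta chain that spans the membrane and ties matrix proteins, or partners on other cells, to the cytoskeleton. A laminin is a cross-shaped trimer of 1 alpha, 1 beta and 1 gamma chain, and its alpha chain carries the globular end that integrins and dystroglycan bind. Nidogens link the laminin network to the collagen IV network, and each adipocyte, vessel, nerve and muscle fibre of fat tissue is wrapped in such a sheet.

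Integrin genes also lie next to each other in places, and promoter sequence is shown for 4 members whose levels carry the results that follow. Itgam and Itgax, which encode partners of Itgb2 on leukocytes, lie 11.1 kb apart on chromosome 7 with 0 protein-coding genes between them, and Itgad follows Itgax after 3.7 kb. Lama2 had the largest difference between the fractions among the members on the log2(CPM + 1) scale, and Itgb1, the partner of most alpha chains, was the most abundant integrin chain per kilobase in both. The 250 bases before each RefSeq transcript start (GRCm38.p6) are written 5′ to 3′ on the gene's own strand. They are chr7:128062390-128062639 (Itgam, plus), chr7:128129300-128129549 (Itgax, plus), chr10:27616943-27617192 (Lama2, minus) and chr8:128685404-128685653 (Itgb1, plus). The Lama2 window lies inside the gene as placed by GENCODE mouse release 21 (chr10:26980036-27619758), so the RefSeq and GENCODE starts of Lama2 differ. Capitals mark GAGGAA, a core bound by the myeloid factor PU.1 and its relatives, or GGGCGG, the GC box of SP1, on either strand.
Itgam: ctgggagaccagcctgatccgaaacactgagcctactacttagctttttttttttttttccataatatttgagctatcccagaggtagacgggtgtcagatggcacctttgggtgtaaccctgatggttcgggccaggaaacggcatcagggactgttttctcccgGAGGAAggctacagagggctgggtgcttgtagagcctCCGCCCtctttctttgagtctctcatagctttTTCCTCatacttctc
Itgax: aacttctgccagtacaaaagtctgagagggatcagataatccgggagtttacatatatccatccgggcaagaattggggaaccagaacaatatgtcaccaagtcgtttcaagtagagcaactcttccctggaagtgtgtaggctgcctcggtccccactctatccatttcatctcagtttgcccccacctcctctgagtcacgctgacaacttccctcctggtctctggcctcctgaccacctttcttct
Lama2: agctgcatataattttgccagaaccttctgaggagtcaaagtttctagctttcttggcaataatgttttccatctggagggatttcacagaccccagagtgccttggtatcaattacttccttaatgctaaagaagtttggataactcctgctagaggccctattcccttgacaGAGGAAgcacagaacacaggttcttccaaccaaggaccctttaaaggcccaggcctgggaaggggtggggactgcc
Itgb1: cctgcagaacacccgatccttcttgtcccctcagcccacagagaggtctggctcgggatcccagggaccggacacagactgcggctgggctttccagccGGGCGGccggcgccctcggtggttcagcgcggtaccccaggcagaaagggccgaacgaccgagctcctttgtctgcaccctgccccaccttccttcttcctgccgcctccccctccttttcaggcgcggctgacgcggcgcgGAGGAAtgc
GAGGAA stood 2 times in the Itgam window, 0 times in that of Itgax and 1 time each in those of Lama2 and Itgb1. Of 32851 promoter windows of this length in the mouse, 23.3% held GAGGAA and 32.7% held GGGCGG. Of the 27 windows of the 24 members with an entry, 14 (51.9%) held GAGGAA and 10 (37.0%) held GGGCGG, while CACGTG (6.02% of all windows) and TATAAA (12.4%) were in 0 of the 27. Both strands were searched and each motif was counted on its own, overlaps included; a match describes letters, not a bound site.

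Nearly the whole group was lower in mature adipocytes than in stromal vascular cells, with a single member called higher. Of the 37 members with at least 1 CPM in 3 libraries, 32 were called lower in mature adipocytes and 1, Itga7, was called higher (limma on log2(CPM + 1), adjusted p under 0.05). Over all 14193 genes tested, 59.1% were called lower and 28.7% higher in mature adipocytes, so a lower level was frequent in general. The median difference was -2.57 over the members and -0.45 over all genes, on the log2(CPM + 1) scale, which understates the difference of genes at low levels. Itga11, Itga2, Itga8, Itgal, Itgax, Itgb7, Itgb8 and Lama1 reached 1 CPM in 3 libraries only with the stromal vascular libraries. The filter thus favoured a lower call for them, and they are among the 32 and in the median. With no filter, 33 of 39 members were called lower and 1 higher, with medians of -2.21 over members and -0.35 over all genes. The levels of 31 of the 32 called lower did not overlap between the fractions, and Itgb5 overlapped. The share of all genes without overlap between the fractions was not computed, so this count does not set the members apart. Nid2, Lama4, Itgae and Lamb3 were not called, and Itgad and Itgb6 were too low to be tested. In whole fractions, fewer cells of a type and less RNA per cell cannot be told apart.

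**Figure D1:**
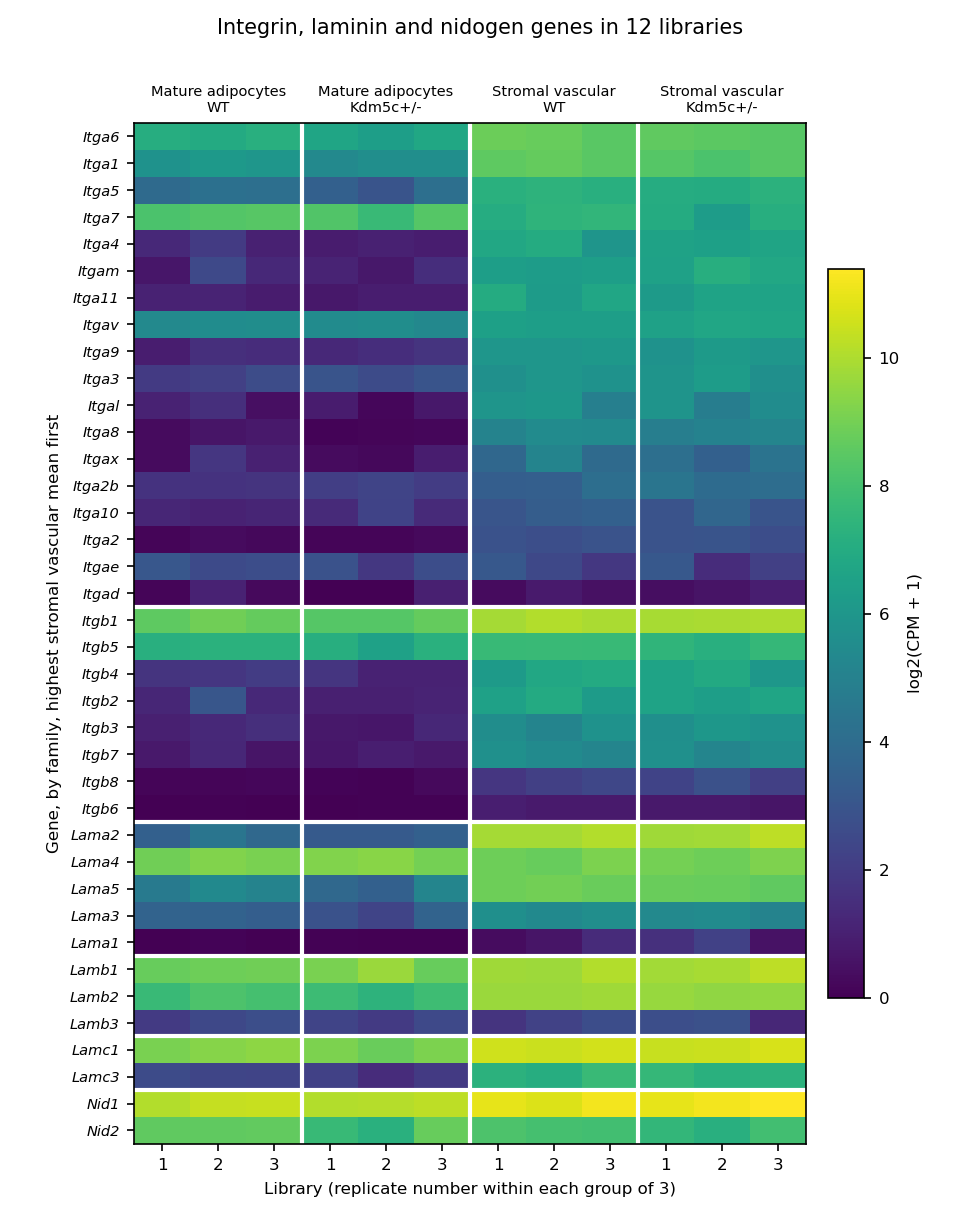
Level of 38 of the genes (rows, by family) in the 12 libraries (columns, 3 per group), as log2(CPM + 1) by colour. The stromal vascular columns are brighter for most rows. Itga7 is the row in which every mature adipocyte column is brighter than every stromal vascular one (213 to 344 CPM against 78.3 to 180.0 CPM).

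The scale of the comparison bears on the members near 0. Between 15.7% and 19.3% of a mature adipocyte library's reads fell on its 10 most abundant genes, against 5.77% to 8.41% of a stromal vascular library's, and CPM does not adjust for this. With median-of-ratios scaling the median of all genes moved from -0.45 to -0.08, and calls over all genes became 5746 higher and 6533 lower in place of 4072 and 8394. Quantile normalization moved it to 0.11, with 6678 higher and 5542 lower. With median-of-ratios scaling, Lama4 (0.56) and Nid2 (0.85) were called higher in mature adipocytes and Itgb5 (-0.06) was no longer called lower. The calls of these members therefore depend on the scaling, and Itgb5 is reported with no direction. Lama4 and Nid2 had estimates above 0 in every setting but were called only in some.

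Among the alpha chains, the laminin receptor chain Itga7 went one way and 15 of the 17 tested went the other. Itga7, known from muscle as a laminin receptor, was measured at 310, 213 and 330.0 CPM in Kdm5c+/- and 283, 325 and 344 CPM in WT mature adipocytes. In the stromal vascular fraction it was measured at 128, 78.3 and 140 CPM in Kdm5c+/- and 132, 170.5 and 180.0 CPM in WT. Every mature adipocyte library was above every stromal vascular library, by a difference of 1.15 ± 0.16 (SE; adjusted p = 2.84e-05, limma, n = 6 each). The 5 skeletal muscle markers summed to 26.2 to 89.7 CPM in mature adipocytes and 2.96 to 10.5 CPM in stromal vascular cells, most of it Acta1 in the former (25.2 to 86.8 CPM). The other 4 summed to at most 2.85 CPM and 1.74 to 5.61 CPM in the same order, with Myh4 and Ckm each at 0 in 4 of 6 mature adipocyte libraries. The part of muscle RNA in the Itga7 level was not tested. Itga7 shares 9 exonic bases with Mettl7b on the other strand, whose level was 4.64 to 8.88 CPM in mature adipocytes and 0.0449 to 0.550 CPM in stromal vascular cells.

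The other laminin-binding chains, Itga3 and Itga6, were lower in mature adipocytes. Itga6, which pairs with Itgb1 or Itgb4, had 82.0, 117 and 143 CPM as the lowest, median and highest mature adipocyte level and 343, 380.1 and 459 CPM in stromal vascular cells (difference -1.75 ± 0.09). Itga3 differed by -3.36 ± 0.14. Thus the 3 chains known mainly as laminin receptors did not share 1 direction.

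All 4 collagen receptor chains, Itga1, Itga2, Itga10 and Itga11, were called lower in mature adipocytes. Itga11, a receptor for fibrillar collagen on fibroblasts, ran from 0.660 to 1.19 CPM (median 0.891) in mature adipocytes and from 73.0 to 126 CPM (median 97.5) in stromal vascular cells. That is a ratio of 103 between the mean levels and a difference of -5.63 ± 0.13 (adjusted p = 4.12e-12, limma, n = 6 each). Itga1, which binds collagen IV, kept 15.4% of its stromal vascular mean in mature adipocytes, against 0.974% for Itga11, 2.83% for Itga2 and 20.3% for Itga10. Itga2 and Itga1 lie 21.0 kb apart on chromosome 13.

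The chains that bind the RGD motif of fibronectin and vitronectin, Itga5, Itga8, Itgav and Itga2b, and the pair Itga4 and Itga9 were likewise called lower, 6 of 6. Itgav stood closest, at 38.9 to 47.1 CPM (median 44.5) against 82.6 to 105 CPM (median 88.9), a difference of -1.05 ± 0.06. Itga5, the fibronectin receptor chain, kept 9.47% of its stromal vascular mean and Itga8 kept 0.856%. Itga4, a receptor for fibronectin and Vcam1 found on leukocytes and other cells, ran from 0.844 to 2.96 CPM (median 1.04) in mature adipocytes and from 60.3 to 129 CPM (median 97.5) in stromal vascular cells. The difference was -5.40 ± 0.20 (adjusted p = 1.94e-10, limma). Its exons share 1124 bases with Cerkl on the other strand, which stood at 0.272 to 0.440 CPM and 0.504 to 1.43 CPM in the same order of fractions. Itga8 shares 372 bases with E030013I19Rik, which was at 0 in all 6 mature adipocyte libraries and at 0.0447 to 1.01 CPM in stromal vascular cells. The sources used here do not say whether reads were counted by strand.

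Of the chains that pair with Itgb2 or Itgb7 on leukocytes, Itgal, Itgam and Itgax were called lower. Itgam (CD11b), a marker of myeloid cells, stood at 1.21, 0.640 and 1.80 CPM in Kdm5c+/- and 0.620, 4.69 and 1.51 CPM in WT mature adipocytes. It stood at 89.8, 138 and 111 CPM in Kdm5c+/- and 83.7, 77.5 and 82.6 CPM in WT stromal vascular cells. The mature adipocyte mean was 1.80% of the stromal vascular one (difference -5.27 ± 0.26, adjusted p = 2.73e-09, limma, n = 6 each). Itgae, the partner of Itgb7 on lymphocytes of epithelia, was not called (0.26 ± 0.31), at 2.56 to 7.48 CPM against 1.69 to 7.92 CPM. Itgad stayed at 0 to 1.12 CPM in mature adipocytes and 0.268 to 0.945 CPM in stromal vascular cells; its neighbour Cox6a2, with 70 shared exonic bases, was at 0 to 0.0392 CPM in the former.

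**Figure D2:**
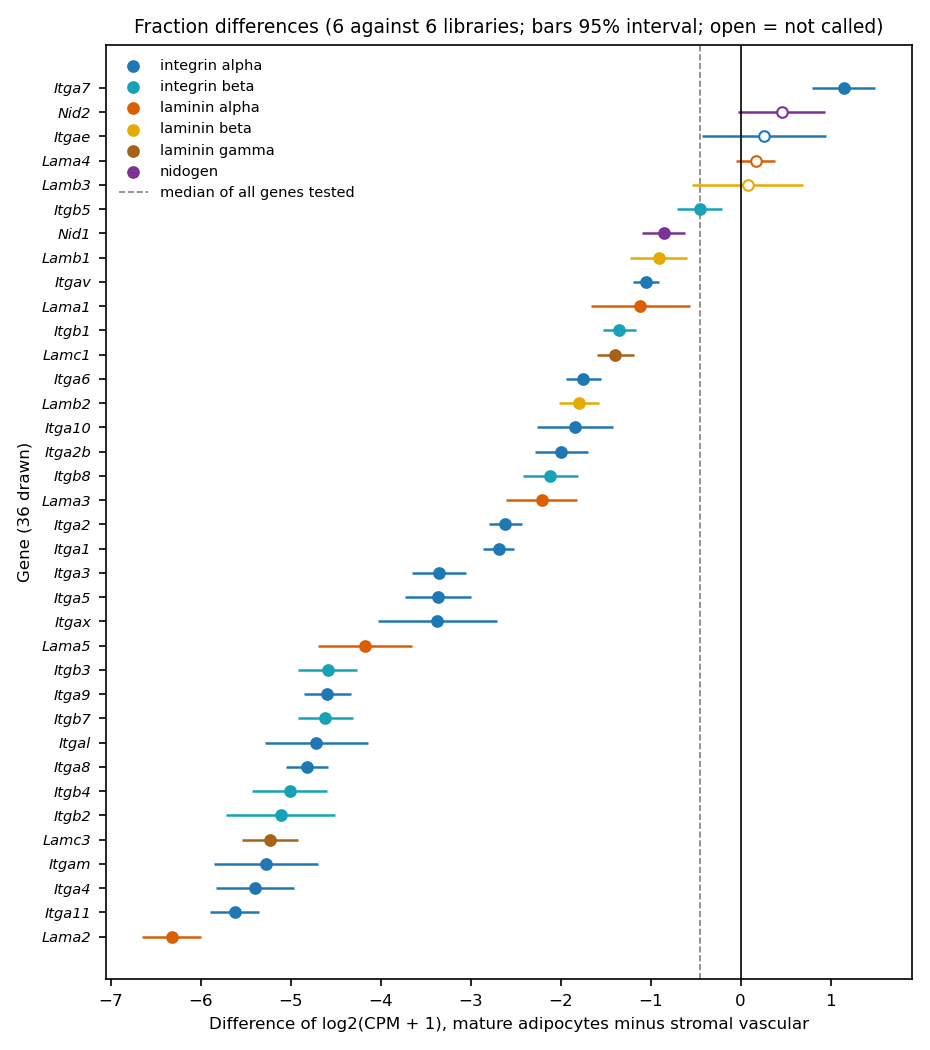
Difference of log2(CPM + 1) between mature adipocytes and the stromal vascular fraction for 36 of the genes tested (points, filled where called; bars, 95% interval; 6 libraries each), with the median of all genes tested as a dashed line. The points run from -6.32 (Lama2) to 1.15 (Itga7), and 31 filled points lie left of 0.

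All 7 beta chains tested were called lower in mature adipocytes on the CPM scale, in a graded way, but the call of Itgb5 depended on the scaling. Itgb1, the partner of most alpha chains, had 330 to 482 CPM (median 397) in mature adipocytes and 931 to 1086 CPM (median 986) in stromal vascular cells. Its difference of -1.35 ± 0.08 was smaller than that of every other tested beta chain except Itgb5. Itgb5, a vitronectin receptor chain, stood at 91.0 to 156 CPM (median 145) against 145 to 209 CPM (median 198), a difference of -0.45 ± 0.11 that was not called with the other scalings. It changed sign in edgeR's test on recovered reads (0.03).

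The beta chains known from leukocytes, platelets and epithelia had far lower shares. Itgb2, the shared chain of the leukocyte integrins, ran from 1.00 to 7.30 CPM (median 1.25) in mature adipocytes and from 75.5 to 122 CPM (median 92.8) in stromal vascular cells (difference -5.11 ± 0.28, adjusted p = 5.85e-09, limma). Itgb4, the hemidesmosome partner of Itga6, ran from 1.10 to 3.13 CPM (median 2.35) against 64.6 to 123 CPM (median 105), a difference of -5.01 ± 0.19 (adjusted p = 2.61e-10, limma). Itgb3 (-4.59 ± 0.15) and Itgb7 (-4.62 ± 0.14) were close to these. Itgb8 was at 0.0400 to 0.235 CPM in mature adipocytes, with fewer than 3 reads in 2 of 6 libraries. Itgb6 had 3 reads over all 6 mature adipocyte libraries and 108 over the stromal vascular ones, a ratio of 38.9 per read counted (95% exact interval 12.9 to 191, counting error only).

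The laminin alpha chains held both the largest difference between the fractions on the log2(CPM + 1) scale, that of Lama2, and one of the smallest. Lama2, the alpha chain of muscle and mesenchymal basement membranes, stood at 8.22, 8.33 and 10.2 CPM in Kdm5c+/- and 10.3, 20.7 and 13.2 CPM in WT mature adipocytes. In stromal vascular cells it stood at 870.5, 897 and 1224 CPM in Kdm5c+/- and 930.5, 913 and 1091 CPM in WT. The lowest stromal vascular value exceeded the highest mature adipocyte value by far, and the mean levels differed by a ratio of 83.4 (difference -6.32 ± 0.15, adjusted p = 8.24e-12, limma, n = 6 each). By the ratio of mean levels, Itga8 (117) and Itga11 (103) stood above it. Lama4, the chain of adipocyte and vessel basement membranes, overlapped instead, at 479 to 656 CPM (median 577) in mature adipocytes and 433 to 580.4 CPM (median 489) in stromal vascular cells (difference 0.17 ± 0.10, adjusted p = 0.126, limma). Lama5, found beneath epithelia and vessels, kept 5.92% of its stromal vascular mean and Lama3, of the epithelial laminin, kept 20.7%. Lama1 had 3 reads over the 6 mature adipocyte libraries and 212 over the stromal vascular ones, a ratio of 76.3 per read counted (95% exact interval 25.8 to 373).

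The beta and gamma chains divided into those held by both fractions and those held mainly by stromal vascular cells. Lamb1, Lamb2 and Lamc1, which complete the common laminin trimers, were lower in mature adipocytes by 0.91, 1.80 and 1.39 on the log2 scale, with 54.0%, 29.1% and 38.3% of the stromal vascular means. Lamc3 ran from 1.72 to 5.17 CPM (median 3.77) against 136 to 207 CPM (median 160.4), a difference of -5.23 ± 0.14 (adjusted p = 1.80e-11, limma). Lamb3, a laminin beta chain of epithelia (2.85 to 5.64 CPM against 1.40 to 6.09 CPM), was not called (0.08 ± 0.28). Of the 11 laminin genes, 9 were called lower and 0 higher.

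The nidogens lay closer to equal levels in the fractions. Nid1 had the highest median level per kilobase of all members in both, at 169.9 CPM per kilobase in mature adipocytes and 312 CPM per kilobase in stromal vascular cells. Nid1 ran from 1066 to 1398 CPM (median 1180) in mature adipocytes and from 1770.1 to 2686 CPM (median 2164) in stromal vascular cells, a difference of -0.85 ± 0.11 (adjusted p = 1.12e-05, limma). Nid2 ran from 151 to 431 CPM (median 392) against 145 to 292 CPM (median 243). Its difference of 0.46 ± 0.22 was not called (adjusted p = 0.0690, limma), but it was called with same-numbered libraries taken as pairs (0.46, adjusted p = 0.00367, limma), which raised the count of members higher in mature adipocytes from 1 to 2. The low values of Nid2 in mature adipocytes were those of Kdm5c+/- replicates 1 and 2, at 201 and 151 CPM.

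Per kilobase of merged exons, the 2 fractions differed in the laminin alpha chain that led. In mature adipocytes Lama4 held 91.0% (89.3% to 96.8% over 6 libraries) of the summed laminin alpha level per kilobase, and in stromal vascular cells it held 29.2% (25.7% to 30.6%). Lama2 held 1.39% (0.908% to 2.27%) and 40.3% (38.7% to 46.7%), and Lama5 held 5.36% (1.63% to 6.59%) and 27.8% (21.3% to 31.5%). In CPM per kilobase, Lama4 was followed in mature adipocytes by Lama5, at 47.8 and 2.53, with Lama3 (0.961) and Lama2 (0.628) below and overlapping. In stromal vascular cells Lama2 came first, at 56.4 (53.3 to 74.9) CPM per kilobase, and Lama4 (35.9 to 48.1) and Lama5 (34.2 to 44.1) overlapped each other. Lamc1 held 98.9% of the gamma level in mature adipocytes and 86.3% in stromal vascular cells, where Lamc3 held 12.4%. With the length of the longest transcript in place of merged exons, Lama4 held 94.7% and 36.6% and Lama5 2.79% and 17.7%, in the same order of fractions.

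Among integrin chains, the leading alpha chain differed between the fractions and the leading beta chain was the same. Itga7 held 57.5% (55.1% to 61.3%) of the summed integrin alpha level per kilobase in mature adipocytes and 8.39% (4.99% to 11.3%) in stromal vascular cells. Itga6 held 19.3% and 21.2%, Itga5 held 4.64% and 14.5%, and Itgam held 0.397% and 8.83%. Itgb1 held 69.9% (67.0% to 75.3%) of the beta level in mature adipocytes and 66.2% (64.7% to 68.7%) in stromal vascular cells, with overlapping ranges. Itgb5 held 29.2% (23.9% to 32.2%) and 14.5% (11.6% to 16.4%). Nid2 held 27.8% (15.3% to 33.0%) of the nidogen level in mature adipocytes and 11.6% (7.77% to 16.5%) in stromal vascular cells. Lamb1 and Lamb2 held 54.0% and 45.2% in mature adipocytes and 42.1% and 57.5% in stromal vascular cells, but their order in the latter turned with the longest transcript (53.5% and 46.1%). These shares are descriptions with no test, and the shares of a family sum to a fixed total.

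**Figure D3:**
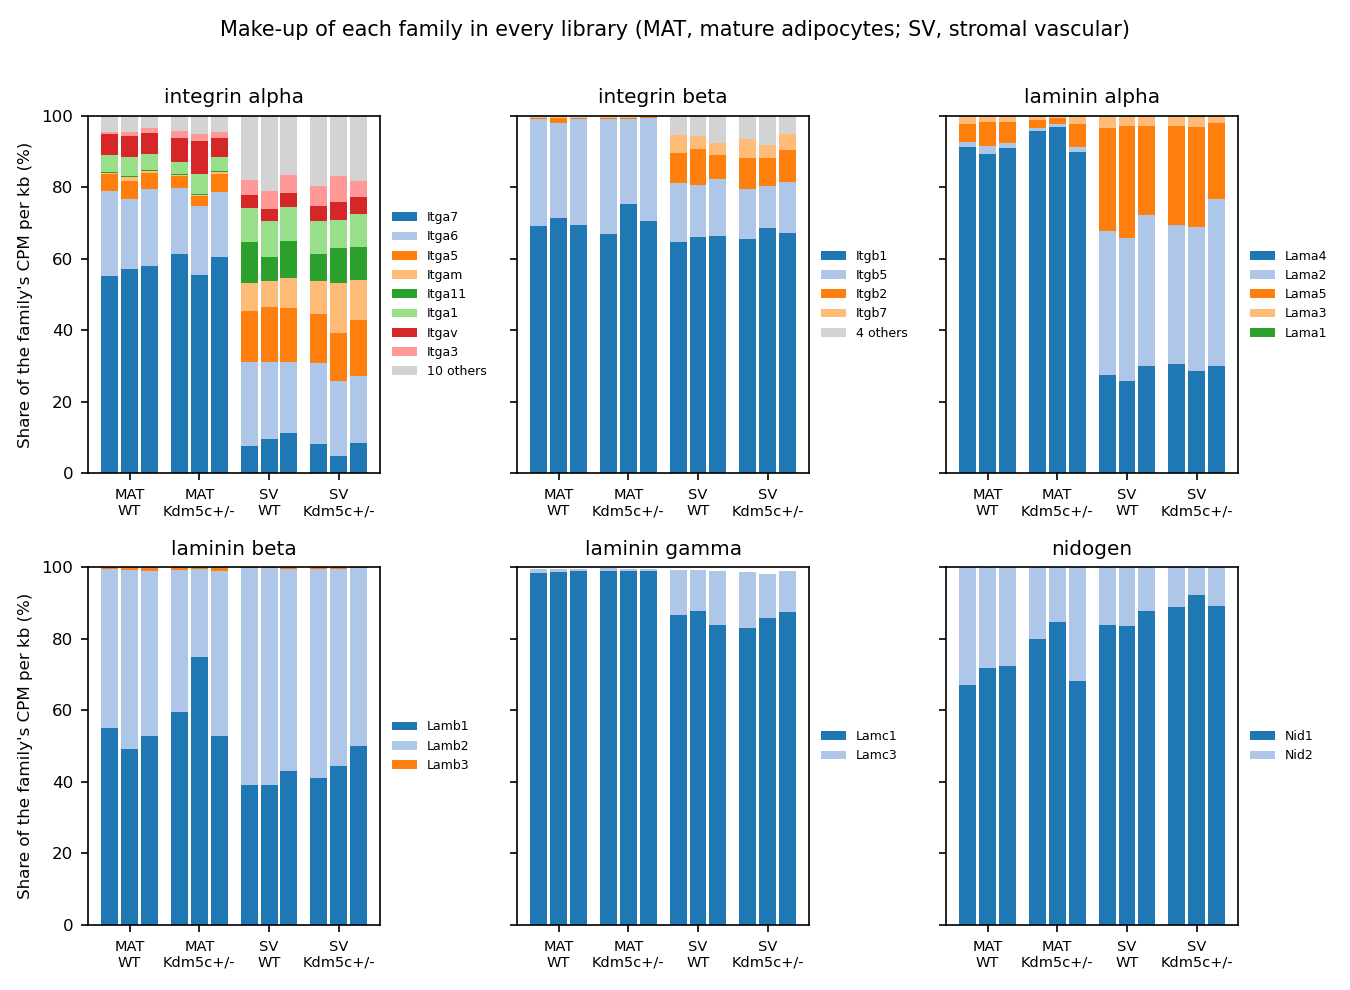
Share of each chain in its family's summed CPM per kilobase of merged exons, 1 bar per library, 3 per group; the gap at the top of a bar is a level not drawn. Lama4 fills at least 89.3% of every mature adipocyte bar of the laminin alpha panel and at most 30.6% of every stromal vascular bar, and Itga7 fills at least 55.1% and at most 11.3% in the integrin alpha panel.

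The residual levels of some members in mature adipocytes can be set beside those of the markers of other cell types. In WT libraries, the mature adipocyte mean as a percentage of the stromal vascular mean had a median of 1.63% over 8 progenitor and fibroblast markers (1.26% to 152%, the highest being Gsn), 3.71% over 8 endothelial markers (0.829% to 4.67%) and 2.78% over 7 macrophage and myeloid markers (2.54% to 15.6%). It was 1.62% over 7 lymphocyte markers (1.30% to 2.53%) and 0.796% over 8 mammary epithelium markers (0 to 2.31%). It was 3.46% over 8 pericyte and smooth muscle markers (1.76% to 76.7%), 14.5% over 7 Schwann cell markers (3.80% to 134%), 4.38% over 4 platelet markers (0 to 9.90%) and 38.4% over 5 skeletal muscle markers (8.51% to 2164%, the highest being Acta1). The same percentage was 1.51% for Lama2, 1.03% for Itga11, 2.80% for Itgam, 3.50% for Itgb2, 2.19% for Itgal, 2.09% for Itgb7, 2.55% for Itgb4 and 2.67% for Lamc3. It was 16.2% for Itga1, 32.7% for Itga6, 42.6% for Itgb1, 41.9% for Lamc1, 61.9% for Nid1, 111% for Lama4 and 197% for Itga7. The part of other cell types in the mature adipocyte values of the members was not tested.

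Genes that work with these families were also mostly lower in mature adipocytes. Of 26 basement membrane partners tested, 22 were called lower and 1 higher (median -2.36); Ntn4 (-5.02 ± 0.10), a netrin that binds laminin gamma chains, Fbln1 (-5.85 ± 0.13) and Col4a3 (-4.37 ± 0.10), a collagen IV chain, had the smallest p. Of 26 integrin ligands, 22 were called lower and 1 higher (median -3.70), among them Fbn1 (-6.56 ± 0.14), the main fibrillin, and the leukocyte ligands Icam1 (-5.23 ± 0.11) and Icam2 (-4.49 ± 0.11). Of 32 genes of the integrin adhesome, the proteins that join integrins to actin, 25 were called lower and 4 higher (median -1.31). The focal adhesion kinase Ptk2 differed by -1.71 ± 0.04, the parvin Parvb by -4.82 ± 0.10 and the tensin Tns3 by -2.55 ± 0.08. Of 17 laminin receptors other than integrins and their partners, 10 were called lower and 5 higher, with a median of -0.22 against -0.45 over all genes. In that last list, Sgcd, a sarcoglycan, was higher in mature adipocytes (2.95 ± 0.09; 69.2 ± 15.8 against 7.93 ± 0.892 CPM), while Bcam (-5.16 ± 0.17), a receptor for Lama5, and Dmd (-2.46 ± 0.13), dystrophin, were lower.

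**Figure D4:**
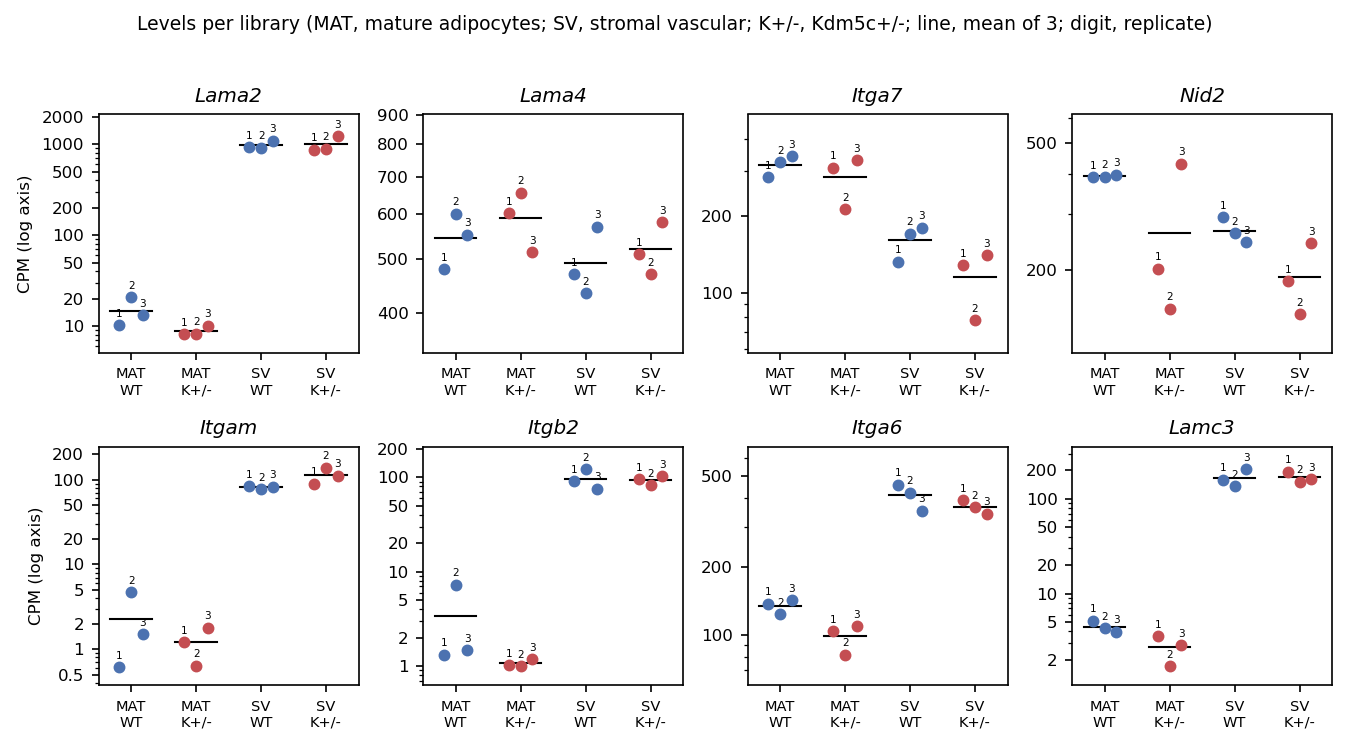
Level in CPM (log axis) of 8 genes in each library, with the replicate number beside each point and the mean of 3 as a line. Lama2 and Itga7 part the fractions in opposite directions, Lama4 overlaps, and WT replicate 2 of mature adipocytes is the highest of its fraction for Itgam (4.69 CPM) and Itgb2 (7.30 CPM).

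Between genotypes in mature adipocytes, 0 of the 29 members tested were called, as was the case for 0.0% of the 11913 genes tested (limma). The smallest adjusted p of a member was 0.275, for Itga1. At an unadjusted p under 0.05, 2 members were higher and 4 lower in Kdm5c+/-, against 5.57% of all genes higher and 9.01% lower. No value overlapped between the genotypes for 2 members that were higher and 7 that were lower, against 9.44% and 12.6% of all genes. The estimate was below 0 for 23 of 29 members and for 56.9% of all genes, with a median of -0.33 over members and -0.03 over all genes. With a library left out, 1 to 2 members were higher and 2 to 9 lower at that threshold (9 without Kdm5c+/- replicate 3, 2 without Kdm5c+/- replicate 2 or WT replicate 2). Over all genes, 1796 of 11805 were lower without Kdm5c+/- replicate 3, in place of 1073 of 11913. Lower genes numbered 946 of 11856 without Kdm5c+/- replicate 2 and 556 of 11786 without WT replicate 2. edgeR called 0 genes in either direction, with 961 higher and 794 lower at an unadjusted p under 0.05. DESeq2 called 125 genes higher and 125 lower, none of them a member.

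Itga1 and Itga6, receptor chains for collagen and laminin, had the smallest p among the members. Itga1 was measured at 40.3, 49.0 and 48.5 CPM in Kdm5c+/- and 55.5, 67.8 and 62.6 CPM in WT, with no overlap and an estimate of -0.42 (95% interval -0.69 to -0.16). Itga6 was measured at 104, 82.0 and 109 CPM against 137, 124 and 143 CPM, also with no overlap (-0.45, interval -0.75 to -0.16, adjusted p = 0.279, limma). Among the laminins, Lama2 (values above) had an estimate of -0.62 (interval -1.19 to -0.06, adjusted p = 0.322, limma). Lamc3 stood at 3.56, 1.72 and 2.86 CPM against 5.17, 4.28 and 3.98 CPM (-0.59, interval -1.09 to -0.08). These groups did not overlap, and none passed the adjusted threshold.

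Of the 6 members with an estimate above 0, the 3 with the smallest p were integrin alpha chains at low levels. Itga2b, the platelet chain, stood at 3.27, 4.002 and 3.09 CPM in Kdm5c+/- and 2.19, 2.14 and 2.24 CPM in WT mature adipocytes (0.48, interval 0.15 to 0.80, adjusted p = 0.286, limma). Itga3 stood at 6.79, 5.16 and 6.74 CPM against 2.81, 3.50 and 5.18 CPM (0.60, interval 0.11 to 1.10). Itga10, a collagen receptor of cartilage, stood at 1.58, 3.84 and 1.57 CPM against 1.32, 1.12 and 1.24 CPM (0.51, interval -0.11 to 1.14), with replicate 2 of Kdm5c+/- far above the rest. Itga2b and Itga10 did not overlap between genotypes and Itga3 did.

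Single libraries stood apart in mature adipocytes. In WT replicate 2, Itgb2 stood at 7.30 CPM against 1.32 and 1.47 CPM in the other WT libraries, Itgam at 4.69 CPM and Itgax at 2.51 CPM against 0.248 and 1.08 CPM. Lama2 was highest there too, at 20.7 CPM against 8.22 to 13.2 CPM in the other mature adipocyte libraries. So were the progenitor and fibroblast markers other than Pi16, among them Dcn, at 79.9 CPM against 31.2 to 40.0 CPM. The summed macrophage and myeloid markers (7 of 8 listed) stood at 99.4 CPM in that library and at 36.9 to 42.3 CPM in the other 5. Without it the estimate for Itgam turned from -0.39 to 0.10, and the median over members was -0.22 with 21 of 28 below 0. In Kdm5c+/- replicate 2, Lama5 (10.4 CPM), Itga7 (213 CPM), Itgb5 (91.0 CPM) and Nid2 (151 CPM) were the lowest and Lamb1 (806 CPM) the highest of the fraction. Without that library the median was -0.19 with 20 of 29 below 0.

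Markers of other cell types had estimates mostly below 0 between the genotypes of this fraction, but the sums of several lists overlapped. The 8 endothelial markers summed to 120.1 to 215 CPM in Kdm5c+/- and 270.5 to 339 CPM in WT, with 8 of 8 estimates below 0 (median -0.81). The 8 progenitor and fibroblast markers summed to 13203 to 15916 CPM against 17170 to 26324 CPM (8 of 8 below 0, median -0.49). Gsn made up most of that sum, at 13131 to 15842 CPM against 17086 to 26171 CPM, and the other 7, summed apart after the levels were seen, stood at 71.2 to 73.6 CPM against 83.8 to 153 CPM. The 8 pericyte and smooth muscle markers summed to 205 to 344 CPM against 337 to 524 CPM, with overlap (7 of 8 below 0, median -0.93). The macrophage and myeloid sums also overlapped, at 36.9 to 39.9 CPM against 36.9 to 99.4 CPM (6 of 7 below 0). So did the Schwann cell sums, at 70.6 to 95.5 CPM against 90.7 to 121 CPM (5 of 5 tested below 0). The lymphocyte and mammary epithelium sums overlapped as well, with no marker tested. None of these markers was called, none of the 8 endothelial markers was at 0, and their part in the members' estimates was not tested. The 8 mature adipocyte markers summed to 28838 to 37187 CPM in Kdm5c+/- and 26479 to 27061 CPM in WT (3 of 8 below 0). Cfd made up a large part of that sum, at 10491 to 18913 CPM against 9604 to 11908 CPM. The other 7, also summed apart after the levels were seen, overlapped, at 17199 to 18347 CPM against 15153 to 17280 CPM.

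**Figure D5:**
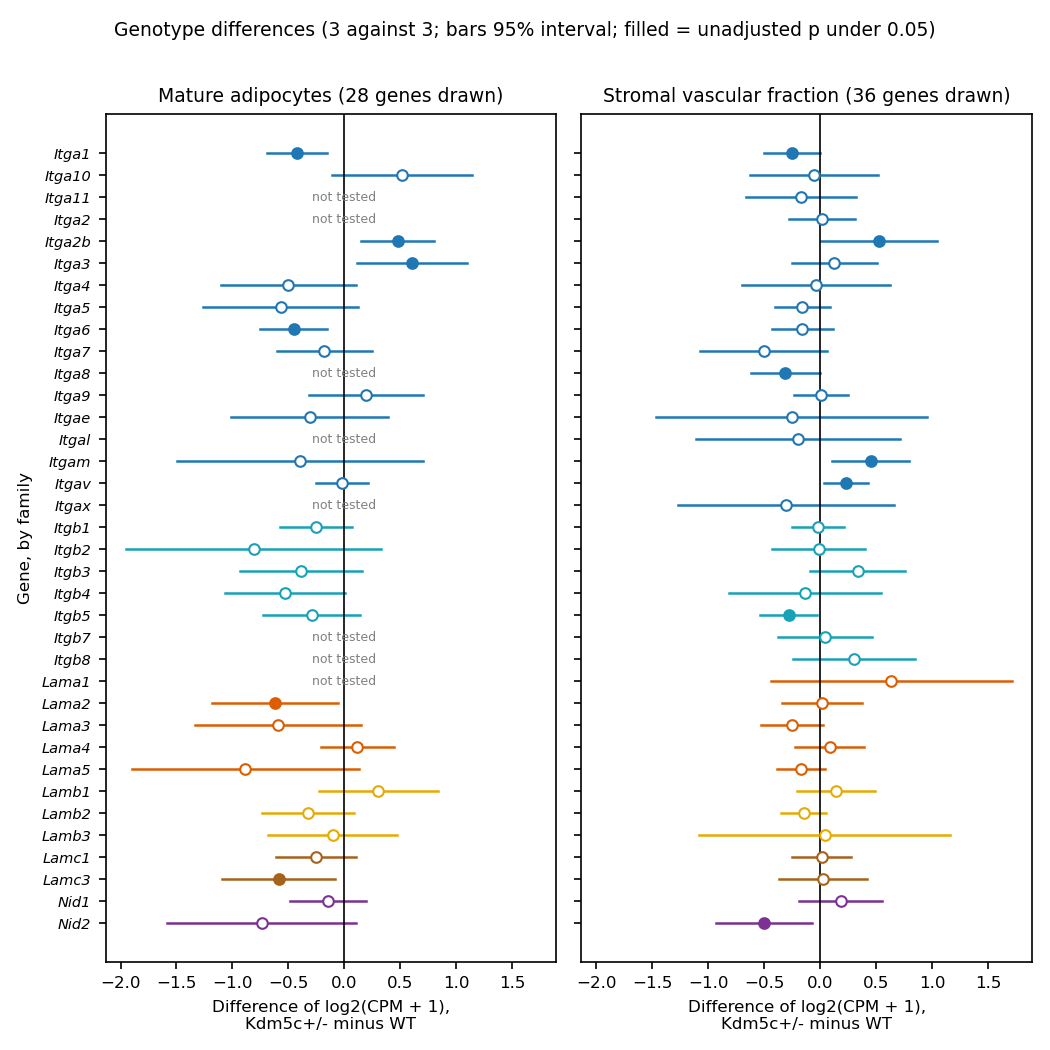
Difference of log2(CPM + 1) between Kdm5c+/- and WT in mature adipocytes (left, 28 genes) and stromal vascular cells (right, 36 genes), 3 libraries each, with the 95% interval as a bar and a filled point where the unadjusted p was under 0.05. In mature adipocytes 22 points lie below 0, in stromal vascular cells 19, and 0 passed the adjusted threshold in either.

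Between genotypes in the stromal vascular fraction, 0 of 37 members tested were called, against 0.00725% of the 13792 genes tested (1 gene, limma). That gene, Rps4l, is no member and is named after its values were seen. The smallest adjusted p of a member was 0.617. At an unadjusted p under 0.05, 4 members were higher in Kdm5c+/- and 4 lower, against 2.07% and 5.5% of all genes, and 3 and 5 did not overlap, against 3.74% and 9.74%. The median over members was -0.01 and over all genes -0.03, with 19 of 37 below 0, and the sign of the members' median turned with each other scaling (0.01 to 0.03). With median-of-ratios scaling 4 members were higher and 1 lower at that unadjusted threshold, and over all genes 463 and 498 in place of 285 and 758. With a library left out, 1 to 4 members were higher and 0 to 6 lower (1 and 1 without WT replicate 2, 3 and 0 without Kdm5c+/- replicate 1, 3 and 6 without Kdm5c+/- replicate 3). Over all genes, the same settings in that order gave 148 and 341 of 13718, 266 and 851 of 13695, and 619 and 877 of 13724.

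Itgam (values above) was higher in every Kdm5c+/- than in every WT stromal vascular library (0.45, interval 0.11 to 0.80), and so was Itgav, at 89.6, 105 and 104 CPM against 88.2, 82.8 and 82.6 CPM (0.23, interval 0.03 to 0.42). The 7 macrophage and myeloid markers summed to 1826 to 2628 CPM in Kdm5c+/- and 1852 to 1932 CPM in WT (0 of 7 below 0, median 0.17), and the 8 mammary epithelium markers to 100.2 to 384 CPM against 147 to 293 CPM. Their part in these estimates was not tested.

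On the lower side, Nid2 stood at 184, 145 and 242 CPM in Kdm5c+/- and 292, 261 and 244 CPM in WT (-0.51, interval -0.93 to -0.08). Itgb5 stood at 177, 145 and 191 CPM against 205, 209 and 206 CPM (-0.28, interval -0.53 to -0.03). Both sets were without overlap, whereas Itga8, at 28.4, 31.7 and 35.0 CPM against 32.7, 44.3 and 42.5 CPM, overlapped (-0.31 ± 0.13). Lama2 had an estimate of 0.01 (interval -0.34 to 0.37), and its sign turned when any of 3 libraries was left out (-0.14 to -0.02). The endothelial markers summed to 6251 to 8046 CPM in Kdm5c+/- and 7836 to 8505 CPM in WT (8 of 8 below 0, median -0.20). The pericyte and smooth muscle markers summed to 3439 to 3964 CPM against 3944 to 4929 CPM (8 of 8 below 0, median -0.36). The mature adipocyte markers summed to 549.8 to 1573 CPM against 471 to 952 CPM (2 of 8 below 0, median 0.72). The part of these cell types in the members' estimates was not tested.

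The difference between the 2 genotype differences was called for 0 of 37 members and for 0.0% of 14193 genes (limma). The estimate, mature adipocytes minus stromal vascular cells, was below 0 for 31 members and for 52.7% of all genes, with medians of -0.23 and -0.01. Itga11, Itga2, Itga8, Itgal, Itgax, Itgb7, Itgb8 and Lama1 did not pass the filter in mature adipocytes. The log2(CPM + 1) scale narrows their difference there, so their estimates lean on the stromal vascular libraries. With a pseudocount of 0.25, 30 of 37 members were below 0, with medians of -0.27 and -0.03. At an unadjusted p under 0.05, 0 members were above 0 and 2 below, Itgb3 among them, against 4.24% and 4.69% of all genes. With a library left out, 0 to 2 were above and 1 to 7 below (7 without Kdm5c+/- replicate 3 of mature adipocytes). Without that library, 716 of all 14160 genes were above and 1229 below, in place of 602 and 665 of 14193.

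The members with the smallest p had wide intervals. Itgb3, the vitronectin and fibrinogen receptor chain, stood at 0.660, 0.600 and 1.41 CPM against 0.992, 1.46 and 1.93 CPM in mature adipocytes and at 50.8, 65.0 and 54.8 CPM against 46.7, 34.3 and 55.5 CPM in stromal vascular cells, Kdm5c+/- first (-0.72, interval -1.39 to -0.06). Lamc3 (-0.61 ± 0.28), Lama2 (-0.64, interval -1.29 to 0.02) and Itgam (-0.85 ± 0.52) followed below 0. Above 0 were Itga3 (0.48, interval -0.12 to 1.08), Itga10 (0.57, interval -0.28 to 1.42) and Itga7 (0.33, interval -0.37 to 1.03). With same-numbered libraries taken as pairs, 2 members above 0 and 6 below had an unadjusted p under 0.05, and 0 were called. Of all 14193 genes, 755 above 0 and 848 below passed that unadjusted threshold with pairs.

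None of the partner genes was called between genotypes either. In mature adipocytes, the smallest adjusted p of a list was 0.273, for the adhesome (Ptk2, 40.1 against 50.7 CPM, and Lims1, 43.1 against 53.9 CPM, Kdm5c+/- first) and for the laminin receptors (Dmd, 11.0 against 21.8 CPM). Estimates below 0 numbered 27 of 30 for the adhesome, 14 of 18 for the basement membrane partners, among them the perlecan gene Hspg2 (898 against 1373 CPM), 17 of 19 for the ligands and 11 of 16 for the laminin receptors, beside 56.9% of all genes tested. In stromal vascular cells the smallest adjusted p was 0.617 (Bcar1, -0.37 ± 0.11; Vtn, -0.36 ± 0.12; Dmd, -0.31 ± 0.09), and the fibrillar collagens Col1a1 (0.56 ± 0.20) and Col1a2 (0.57 ± 0.20) had estimates above 0. There, 30 of 32 adhesome genes had estimates below 0, beside 14 of 26 basement membrane partners, 9 of 26 ligands, 11 of 17 laminin receptors and 59.4% of all genes tested. The difference between the genotype differences of the 2 fractions had a smallest adjusted p of 0.504 (limma), for Sgcd (-0.65 ± 0.19).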

How the data were processed

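RNA was measured in 12 libraries, each a pool of 2 mice, with strand-specific libraries made with a NuGEN kit, per the labels' protocols. STAR 2.7.2a, edgeR 3.26.8 and GRCm38 were used, per the submitters' processing notes; the sources used here do not name the counting tool or the gene annotation. The authors deposited CPM values (counts per 1000000 reads). All values were whole multiples of 1 read within 0.05 read, so reads were recovered (21836878 to 29434125 per library), which sets the precision of each value; intervals on read ratios cover counting error only. Every gene listed exceeded 0.1 CPM in at least 3 libraries. Nothing says that the replicates' pools were independent beyond their labels, so p-values measure the spread between these libraries.

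Each comparison was fitted with limma 3.58.1 (R 4.3.3; trend, robust, two-sided) on log2(CPM + 1). Genes needed a level of 1 CPM in no fewer than 3 of the fitted libraries, with Benjamini-Hochberg adjustment over all genes tested and a threshold of 0.05. The fraction comparison and the difference of genotype differences used 12 libraries, and each genotype comparison its own 6. Same-numbered libraries of the 2 fractions of a genotype deviated together (correlations across 10892 genes of 0.160 to 0.349 in 6 of 6 pairs). The main fits had a mean per group and no pairs, so their p-values do not take this into account. Pairs, read from the data and not from the labels, entered only in the replicate block. Alternatives were a pseudocount of 0.25, no filter or a mean of 5 CPM, median-of-ratios and quantile scaling, edgeR 4.0.16 and DESeq2 1.42.0 on recovered reads, a replicate block, WT libraries alone, 1 fit of all 12 libraries and each library left out. Length from the longest transcript was added after seeing the data.

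Lengths and positions came from GENCODE mouse release 21 (39 of 39 members matched) and promoters from RefSeq. In each comparison the text gives, per family, the called members with the 2 largest differences in each direction (fractions), or the members called and the 3 with the smallest p in each direction (genotypes), always Lama2 and Itgam, and up to 3 members per partner list. Other members are given by range. The values of 1 member are not reported here, though the counts and medians include it. The members and lists were chosen with earlier results of these data known. The tests were checked on simulated data with independent libraries and the same spread setting for all genes, so the check does not cover the pairs seen here.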

Additional observations from a re-analysis of the deposited data

How the results depend on the processing

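Of the estimates of the members chosen by the rule on differences or p, 566 recomputed values kept their direction and their side of the threshold and 4 turned sign. Those 4 were Itgam between genotypes in mature adipocytes (-0.80 to 0.10 with a library left out, the latter without WT replicate 2) and Lama2 in the stromal vascular fraction (-0.142 to -0.0192 without Kdm5c+/- replicate 3, WT replicate 1 or WT replicate 2). Members given in a comparison without being chosen by that rule are not among them. Between fractions, Itgb5 lost its call with median-of-ratios, quantile, edgeR and DESeq2 (-0.06, -0.24, 0.03 and -0.05), turning sign in edgeR, and Lama1 lost its call with quantile normalization (-0.38). The median over members in the stromal vascular genotype comparison turned to 0.0258, 0.0113, 0.0133 and 0.0193 with median-of-ratios, quantile, edgeR and DESeq2.

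Between fractions, the count of members higher in mature adipocytes was 3 with median-of-ratios scaling, edgeR and DESeq2 (Lama4 and Nid2 joined Itga7), 4 with quantile normalization (Nid2, Itgae and Lamb3), 2 with the replicate block or WT libraries alone (Nid2), and 1 to 2 with a library left out (2 without Kdm5c+/- replicate 2 of mature adipocytes, Kdm5c+/- replicate 3 or WT replicate 3 of the stromal vascular fraction). Quantile normalization called 6678 genes higher and 5542 lower. The count of members lower was 29 to 33 in all settings.

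Between genotypes, 0 members were called in any comparison and setting. Over all genes, DESeq2 called 125 higher and 125 lower in mature adipocytes. It called 25 and 28 in the stromal vascular fraction and 19 and 46 for the difference of differences. One fit of 12 libraries called 1 gene lower in mature adipocytes and 2 higher and 2 lower in the stromal vascular fraction. With a library left out, the genes called higher and lower numbered 0 to 2 and 0 to 1 in mature adipocytes, 0 to 0 each in the stromal vascular fraction, and 0 to 1 and 0 to 6 for the difference of differences; the highest counts came without Kdm5c+/- replicate 3 of mature adipocytes. The replicate block called 0 genes higher in the stromal vascular fraction in place of 1, and changed no other genotype call. Same-numbered libraries of the 2 genotypes correlated at -0.176 to 0.336, 2 of 6 best with their own number, so they share a number and no more. The causes of these shifts were not tested. Members under 3 reads in a library, Itgb6, Lama1, Itgb8, Itgad and Itga8, are limited by depth in mature adipocytes.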
